A study of Mus musculus with 12 samples.

Results

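Kdr, Flt1, Flt4, Tek, Tie1, Angpt1, Angpt2, Pecam1, Eng and Vwf, 10 genes of the VEGF and angiopoietin receptor systems and of the endothelial surface, were chosen by symbol, and each symbol was found once among the 23235 liver entries and once among the 24421 entries of immortalized mouse embryonic fibroblasts (MEFs). Bulk RNA sequencing had been run on G2A and WT samples, none of them treated. The G2A livers (Rpt2G2A/G2A) and the WT livers (no Rpt2 mutation) came from E12.5 embryos, 3 per genotype, and the labels describe them as littermate pairs without saying that a sample number marks a pair, so the tests do not use pairs. The G2A MEFs (Rpt2G2A/G2A) and the WT MEFs were immortalized cells, with values for 2 G2A and 3 WT samples, and 1 further labelled G2A MEF sample was not analysed here. The sources used here do not say whether the MEF samples came from separate embryos, lines or cultures, so their p-values measured only the spread between these samples. As background, G2A replaces the glycine of the proteasome ATPase Rpt2 (encoded by Psmc1) to which a myristoyl lipid anchor is attached, so that the proteasome loses this anchor.

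In vertebrates, VEGF ligands bind receptor tyrosine kinases on endothelial cells and drive vessel growth, while angiopoietins bind the kinase TIE2 and govern vessel maturation and quiescence. The fetal liver at mid-gestation is the main site of blood formation, and its sinusoidal endothelium and perivascular cells form part of the niche for blood stem cells. VEGFR2 (Kdr) carries most of the VEGF-A signal, VEGFR1 (Flt1) binds VEGF-A tightly and, as a secreted form, acts as a decoy, and VEGFR3 (Flt4) binds VEGF-C and VEGF-D and is known for lymphatic growth. TIE2 (Tek) is the angiopoietin receptor, TIE1 (Tie1) its partner without a ligand that binds it strongly, ANGPT1 the agonist made by perivascular and mesenchymal cells, and ANGPT2 the context-dependent antagonist stored in endothelial cells. PECAM-1 is a junction adhesion molecule of endothelium and platelets, endoglin (Eng) a co-receptor for BMP9 and TGF-beta, and von Willebrand factor (Vwf) a clotting protein of endothelium and megakaryocytes. The values were summed per gene and do not separate the secreted from the membrane form of Flt1.

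Of the genes on which the results below turn, Angpt1 and Vwf had no promoter entry. The promoters of 4 others are shown: Kdr and Flt1 for liver, Flt4 and Eng for MEFs. Each is the 300 bases around a RefSeq start site, printed 5′ to 3′ along the gene from a table of build GRCm38.p6, and each was found exactly once in NCBIM37, whose coordinates are given. Capitals mark the letters GGAAG or its reverse complement CTTCC, the core that ETS factors of endothelial genes bind, and ACGTG or GCGTG and their reverse complements CACGT and CACGC, the core that hypoxia-inducible factors bind.
Kdr, chr5:76374431-76374730, minus strand: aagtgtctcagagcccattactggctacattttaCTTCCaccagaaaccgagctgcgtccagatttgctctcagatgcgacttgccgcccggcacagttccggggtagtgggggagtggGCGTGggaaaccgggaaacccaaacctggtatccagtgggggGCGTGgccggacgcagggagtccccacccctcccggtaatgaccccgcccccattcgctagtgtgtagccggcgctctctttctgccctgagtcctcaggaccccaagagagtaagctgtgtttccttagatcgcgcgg
Flt1, chr5:148537538-148537837, minus strand: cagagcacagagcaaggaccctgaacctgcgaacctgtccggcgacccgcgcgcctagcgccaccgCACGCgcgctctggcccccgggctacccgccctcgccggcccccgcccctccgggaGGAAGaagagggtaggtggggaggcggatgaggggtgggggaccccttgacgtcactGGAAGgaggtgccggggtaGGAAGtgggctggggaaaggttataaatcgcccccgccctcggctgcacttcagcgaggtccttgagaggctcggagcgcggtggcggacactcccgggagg
Flt4, chr11:49422931-49423230, plus strand: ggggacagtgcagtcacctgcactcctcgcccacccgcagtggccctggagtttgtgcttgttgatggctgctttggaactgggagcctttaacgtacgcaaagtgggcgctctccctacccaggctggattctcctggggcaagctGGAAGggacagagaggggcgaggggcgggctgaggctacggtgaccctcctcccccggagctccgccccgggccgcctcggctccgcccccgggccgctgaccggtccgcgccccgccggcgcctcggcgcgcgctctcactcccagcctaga
Eng, chr2:32501865-32502164, plus strand: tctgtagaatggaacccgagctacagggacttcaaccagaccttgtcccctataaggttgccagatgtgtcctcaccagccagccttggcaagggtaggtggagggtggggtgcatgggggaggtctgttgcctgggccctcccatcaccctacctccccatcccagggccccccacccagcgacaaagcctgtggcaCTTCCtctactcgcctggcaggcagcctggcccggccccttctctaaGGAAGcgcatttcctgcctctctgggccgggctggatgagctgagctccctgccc

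On either strand, GGAAG was found 1 time in the Kdr window, 3 times in Flt1, 1 time in Flt4 and 2 times in Eng. The hypoxia core was found 2 times in the Kdr window and 1 time in Flt1, and its letters are not in the Flt4 and Eng windows. Of 32851 promoters of this length, 71.4% held the ETS core and 43.8% the hypoxia core, and no marked match overlapped another. These matches are descriptions of letters, and binding was not measured. The table also matched Tek and Tie1, so 6 of the 10 genes had a promoter entry.

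In NCBIM37 all 10 genes are protein coding. Kdr lies at chr5:76328852-76374483 and Flt1 at chr5:148373180-148537587, both on the minus strand. Flt4 lies at chr11:49422765-49466241 and Tek at chr4:94405980-94541667, both on the plus strand, and Tie1 at chr4:118143796-118162666 on the minus strand. Angpt1 lies at chr15:42256273-42508523, Angpt2 at chr8:18690263-18741562 and Pecam1 at chr11:106515531-106611942, all on the minus strand. Eng lies at chr2:32502115-32538189 and Vwf at chr6:125496792-125636697, both on the plus strand. Exons of Eng overlap exons of Ak1 on the same strand and of Fpgs on the opposite strand, and exons of Angpt1 overlap a long noncoding RNA gene on the opposite strand, so reads of these 2 genes are uncertain.

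Before the results, 2 libraries must be set apart. On the first principal component of the livers (37.9% of the variance) G2A livers 1, 2 and 3 lay at -30.6, -34.9 and 7.91, and WT livers 1, 2 and 3 at 13.3, 23.3 and 21.1, so G2A liver 3 lay nearer the WT livers. On that of the MEFs (73.4%) G2A MEFs 1 and 2 lay at -51.5 and -55.2, and WT MEFs 1, 2 and 3 at 87.2, 92.0 and -72.5, so WT MEF 3 lay beside the G2A MEFs. Psmc1 itself was at 145 to 161 FPKM in G2A livers against 178 to 181 FPKM in WT livers, and at 10658 and 10913 normalized reads in G2A MEFs against 6485 to 8589 in WT MEFs; an exchanged codon leaves the mRNA, so its level checks no label. The MEF libraries held 36415586 to 37695116 gene reads, and the read depth of the livers is unknown. Results on the 10 genes are given with and without the 2 libraries that stood apart.

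In fetal liver, 7 of the 10 genes were higher in every G2A liver than in any WT liver: Kdr, Flt1, Flt4, Tek, Angpt1, Pecam1 and Vwf. None was lower in this way, where 15.7% of all genes were, and Tie1, Angpt2 and Eng overlapped between the genotypes. All 10 passed the filter on low values. The groups were apart with G2A higher for 11.8% of all 12938 genes tested. By limma with Benjamini-Hochberg adjustment over all genes, 0 of the 10 passed an adjusted p of 0.05, where 0.0232% of all genes passed. Before adjustment, 7 of the 10 had a p under 0.05 with G2A higher and 0 with G2A lower, beside 1173 and 1598 genes in all. All 10 log2 fold changes of G2A over WT were above 0, with a median of 0.25, beside 6815 of 12938 genes above 0 and a median of 0.01 over all genes.

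Kdr, Flt1 and Vwf had the smallest p-values of the 10 genes, and of the VEGF receptors Flt4 differed least. Kdr stood at 19.8, 20.7 and 17.1 FPKM in G2A livers 1, 2 and 3, against 14.2, 13.5 and 13.2 FPKM in WT livers 1, 2 and 3. The lowest G2A liver, liver 3, was above the highest WT liver. The log2 fold change on the log2(FPKM + 1) scale, used for all folds below, was 0.46 (SE 0.09, 95% interval 0.25 to 0.67, adjusted p = 0.0914 by limma).

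Flt1 was lower in level than Kdr in all 6 livers and had the highest log2 fold change of the 10. It stood at 5.74, 6.95 and 4.36 FPKM in G2A livers 1, 2 and 3, against 2.56, 3.25 and 3.07 FPKM in WT livers 1, 2 and 3. The groups did not overlap, and G2A liver 3 was again the G2A liver nearest to WT. The log2 fold change was 0.74 (SE 0.16, 95% interval 0.34 to 1.14, adjusted p = 0.107). Within a library Flt1 was 0.290, 0.336 and 0.255 of the Kdr level in G2A livers and 0.180, 0.240 and 0.233 of it in WT livers (exact two-sided permutation p = 0.1, the smallest this design allows).

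Flt4, the receptor of VEGF-C and VEGF-D, came next. Its level was 6.86, 7.51 and 7.66 FPKM in G2A livers, against 5.86, 6.52 and 6.35 FPKM in WT livers. The lowest G2A liver was only just above the highest WT liver, and the log2 fold change was 0.20 (SE 0.08, adjusted p = 0.222).

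The angiopoietin receptors did not move alike in the counts of separated groups. Tek stood at 7.23, 7.95 and 6.90 FPKM in G2A livers, against 6.36, 5.46 and 6.24 FPKM in WT livers, with no overlap (log2 fold change 0.25, SE 0.09, adjusted p = 0.192). Tie1 stood at 12.1, 12.1 and 10.9 FPKM in G2A livers, against 11.8, 10.3 and 10.4 FPKM in WT livers, and G2A liver 3 lay below WT liver 1 (log2 fold change 0.10, SE 0.08, adjusted p = 0.517). The Tek to Tie1 ratio overlapped between the genotypes (0.599 to 0.658 in G2A livers and 0.530 to 0.599 in WT livers, exact two-sided permutation p = 0.2), so a difference between these receptors was not shown.

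Of the ligands, Angpt1 was at 7.56, 6.04 and 6.30 FPKM in G2A livers, against 5.98, 4.59 and 4.09 FPKM in WT livers. The groups were apart by a narrow margin, between G2A liver 2 and WT liver 1, and the log2 fold change was 0.38 (SE 0.15, adjusted p = 0.203). Angpt2, the lowest of the 10 genes, was at 2.57, 3.08 and 1.93 FPKM in G2A livers, against 3.46, 2.08 and 1.71 FPKM in WT livers, and the highest of the 6 values was a WT liver (log2 fold change 0.07, SE 0.22, 95% interval -0.47 to 0.60, adjusted p = 0.882). The Angpt2 to Angpt1 ratio was 0.305 to 0.510 in G2A livers and 0.418 to 0.578 in WT livers, which overlapped (exact two-sided permutation p = 0.3).

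Among the surface and secreted proteins, Vwf differed most. It stood at 8.86, 11.1 and 10.8 FPKM in G2A livers, against 6.63, 7.28 and 5.57 FPKM in WT livers (log2 fold change 0.59, SE 0.13, 95% interval 0.29 to 0.89, adjusted p = 0.103). Here G2A liver 3 did not lie nearest to WT. Pecam1 stood at 20.1, 18.8 and 17.5 FPKM in G2A livers, against 17.2, 15.8 and 14.4 FPKM in WT livers, with a margin smaller than the spread within either genotype (log2 fold change 0.24, SE 0.09, adjusted p = 0.198). Eng, the gene with the highest level, stood at 23.8, 24.6 and 28.2 FPKM in G2A livers, against 25.6, 24.8 and 23.6 FPKM in WT livers, and the groups overlapped (log2 fold change 0.04, SE 0.08, 95% interval -0.15 to 0.24, adjusted p = 0.766). In bulk RNA, a change in the number of cells of a type and a change in RNA per cell cannot be told apart. This holds for each of these levels, whether higher or lower.

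**Figure D1:**
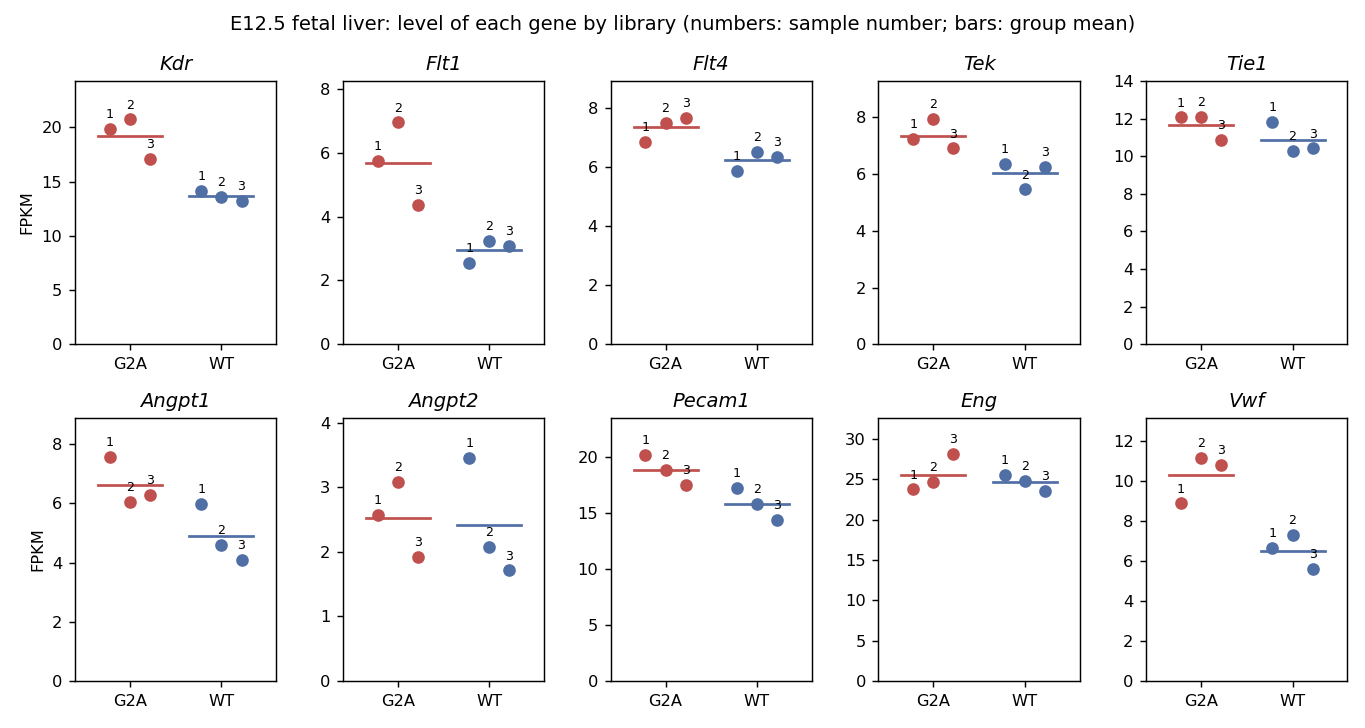
Level of each gene in FPKM (vertical axes from 0) in the 3 G2A livers (left, red) and the 3 WT livers (right, blue); each point is a library with its sample number and each bar a group mean. The groups are apart for 7 genes, and overlap for Tie1, Angpt2 and Eng.

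Within a genotype the genes kept a similar order of level per length. In G2A livers Eng (25.5 ± 2.33 FPKM, SD, n = 3) was followed by Kdr (19.2 ± 1.89) and Pecam1 (18.8 ± 1.32), whose ranges overlapped, then by Tie1 (11.7 ± 0.689) and Vwf (10.3 ± 1.23), which overlapped too. Tek (7.36 ± 0.534), Flt4 (7.34 ± 0.429), Angpt1 (6.64 ± 0.813) and Flt1 (5.68 ± 1.30) each overlapped the next, and Angpt2 (2.53 ± 0.581) was lowest. In WT livers the order was Eng (24.7 ± 1.02), Pecam1 (15.8 ± 1.41), Kdr (13.6 ± 0.486), Tie1 (10.8 ± 0.853), Vwf (6.49 ± 0.863), Flt4 (6.25 ± 0.342), Tek (6.02 ± 0.490), Angpt1 (4.88 ± 0.979), Flt1 (2.96 ± 0.361) and Angpt2 (2.42 ± 0.920). There Vwf, Flt4, Tek and Angpt1 each overlapped the next, and so did Flt1 and Angpt2. Kdr thus stood above Pecam1 on average in G2A livers, with overlapping ranges, and below it in WT livers.

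Without G2A liver 3, 3 of the 10 genes passed the test: Kdr (log2 fold change 0.54, SE 0.06, adjusted p = 0.0104), Flt1 (0.89, SE 0.13, adjusted p = 0.0129) and Vwf (0.55, SE 0.14, adjusted p = 0.0384), all higher in G2A livers. In that comparison 12.4% of all genes passed as higher. The other 7 did not pass, with Pecam1 at an adjusted p of 0.0638 and Tek at 0.0725, and Eng at a log2 fold change of -0.03. With limma's library weights, 6 genes passed as higher (Kdr, Flt1, Tek, Angpt1, Pecam1 and Vwf), where 26.1% of all genes did. These weights were 6.22, 0.740 and 0.176 for G2A livers 1, 2 and 3, and 0.819 to 1.63 for the WT livers. The G2A side of this fit thus rested mostly on G2A liver 1. With each of the other livers left out in turn, none of the 10 passed. The count of 7 separated genes was 7 or 8 with any of the 6 livers left out, and 5 under median-ratio scaling and under quantile normalization. The share of all genes apart under these settings is not given here, so these counts are a description only. With a liver left out, the groups of any gene come apart more easily.

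**Figure D2:**
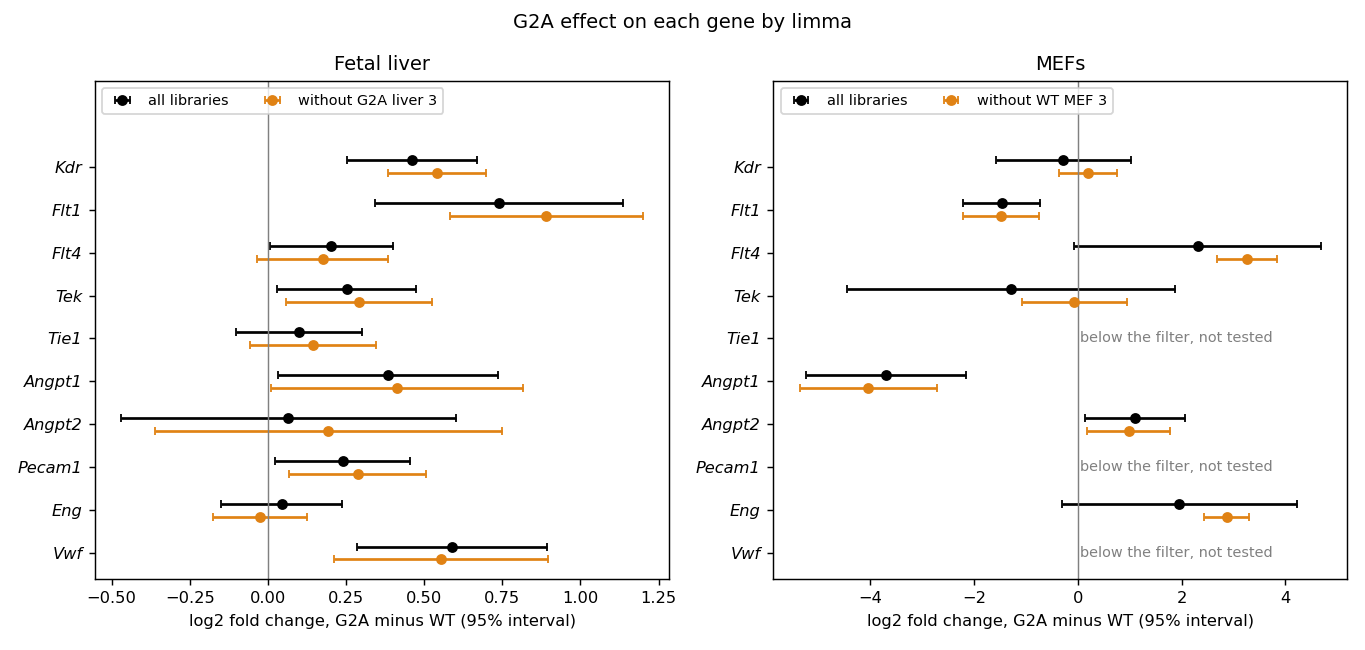
Log2 fold change of G2A over WT for each gene in fetal liver (left) and MEFs (right), with 95% intervals from limma; black points use all libraries and orange points leave out G2A liver 3 or WT MEF 3. In liver the intervals of Kdr, Flt1, Vwf, Tek, Angpt1 and Pecam1 lie above 0 in both fits, and Flt4 and Eng in MEFs have much narrower intervals without WT MEF 3.

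Cdh5, which encodes the endothelial junction protein VE-cadherin, served as a yardstick for endothelial RNA and was chosen for this after its values were seen. It stood at 23.5, 24.5 and 21.5 FPKM in G2A livers, against 24.4, 21.5 and 23.1 FPKM in WT livers, so the groups overlapped (log2 fold change 0.01, adjusted p = 0.946; below 0 under median-ratio scaling). Most other pan-endothelial markers lay above 0. Ratios to the sum of all 28, added after the data were seen, are given after those to Cdh5. Per unit of Cdh5, Kdr was 0.844, 0.847 and 0.794 in G2A livers, against 0.579, 0.631 and 0.573 in WT livers. Every G2A liver, liver 3 included, was above every WT liver. Flt1 per unit of Cdh5 was 0.245, 0.284 and 0.202 in G2A livers, against 0.105, 0.151 and 0.133 in WT livers, and Vwf was 0.377, 0.455 and 0.501 in G2A livers, against 0.271, 0.339 and 0.242 in WT livers. Tek (0.308 to 0.325 in G2A livers and 0.254 to 0.271 in WT livers) and Tie1 (0.494 to 0.514 in G2A livers and 0.452 to 0.484 in WT livers) were also apart. For each of these 5 ratios the exact two-sided permutation test gave p = 0.1, the smallest that 3 livers against 3 allow, so none can pass 0.05. Per unit of the summed pan-endothelial markers, Kdr (0.0428 to 0.0540 in G2A livers and 0.0351 to 0.0378 in WT livers), Flt1 (0.0109 to 0.0181 in G2A livers and 0.00662 to 0.00906 in WT livers), Vwf (0.0235 to 0.0291 in G2A livers and 0.0148 to 0.0203 in WT livers) and Tek (0.0173 to 0.0207 in G2A livers and 0.0152 to 0.0166 in WT livers) stayed apart (exact two-sided permutation p = 0.1 each). Tie1 then overlapped, at 0.0272 to 0.0320 in G2A livers and 0.0277 to 0.0307 in WT livers (exact two-sided permutation p = 0.6). Tal1, which is also on the erythroid list below, is part of this sum. It stood at 76.6, 70.8 and 126 FPKM in G2A livers, against 110, 105 and 119 FPKM in WT livers. In each liver Tal1 had the highest level of the 28, above Egfl7, so every ratio to this sum depends on it. The results for Tek and Tie1 hold only for the sum as listed. Whether Tek stays apart or Tie1 overlaps in a sum without Tal1 was not tested, so no conclusion on these 2 genes is drawn from the sum.

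**Figure D3:**
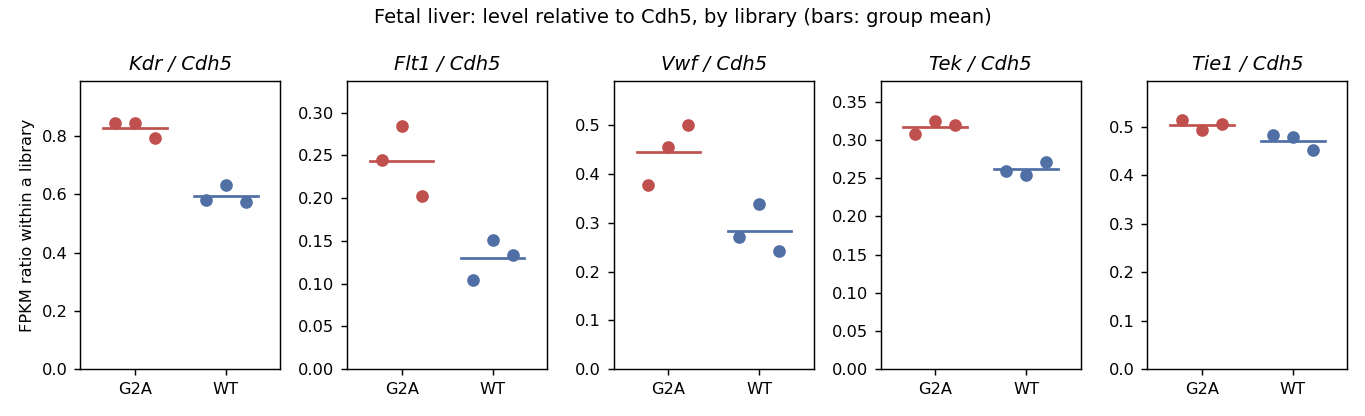
FPKM of Kdr, Flt1, Vwf, Tek and Tie1 divided by that of Cdh5 in the same library (vertical axes from 0), for the 3 G2A livers (left, red) and the 3 WT livers (right, blue); bars are group means. Each G2A liver lies above each WT liver in all 5 panels, and for Tie1 the gap is narrow.

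The ligands and partners of these receptors were read from lists of known pathway members. Beside the counts in all liver lists below, 11.8% of all genes were apart with G2A higher and 15.7% with G2A lower. Without G2A liver 3, 12.4% of all genes passed as higher and 12% as lower. Of 5 VEGF family ligands tested in liver, 0 passed and 2 were apart with G2A higher, Vegfa and Vegfb. Vegfa, the main ligand of VEGFR1 and VEGFR2, stood at 41.8, 52.6 and 32.5 FPKM in G2A livers, against 24.3, 24.7 and 21.2 FPKM in WT livers (log2 fold change 0.80, SE 0.17, adjusted p = 0.103). Without G2A liver 3 it passed (0.98, adjusted p = 0.0106). Its order of livers, highest in G2A liver 2 and lowest among G2A livers in liver 3, was that of Flt1 and Kdr, while among the WT livers the orders differed.

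Of 9 co-receptors and junction partners 0 passed and 3 were apart with G2A higher, with a median of 0.31; without G2A liver 3, 5 passed as higher. Esam, an adhesion molecule of endothelial junctions and platelets, was at 18.0, 20.4 and 17.7 FPKM in G2A livers, against 14.7, 13.2 and 15.7 FPKM in WT livers (0.34, adjusted p = 0.131). Of 13 intracellular signal carriers 0 passed and 1 was apart; without G2A liver 3, 5 passed as higher and 1 as lower. Of 13 receptors and mediators of BMP9 and TGF-beta that work with endoglin 0 passed and 4 were apart with G2A higher, all 13 lay above 0 and the median was 0.32; without G2A liver 3, 6 passed as higher. They include Tgfbr3, the co-receptor betaglycan (0.46, adjusted p = 0.114), and Bmpr2, a type II BMP receptor (0.42, adjusted p = 0.129), while endoglin itself overlapped.

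Other endothelial genes were counted in the same way. Of 28 pan-endothelial markers outside the 10 genes, 0 passed, 9 were apart with G2A higher and 22 lay above 0, with a median of 0.14; their summed level was 378 to 400 FPKM in G2A livers and 359 to 386 FPKM in WT livers, which overlapped. Without G2A liver 3, 4 of them passed as higher and 1, Tal1, as lower (-0.59, adjusted p = 0.0108). Tal1 is also on the erythroid list and is part of the sum. Of 9 sinusoidal markers that passed the filter, of 11 listed, 0 passed and 2 were apart with G2A higher. These were Stab1, a scavenger receptor of sinusoidal endothelium (0.36, adjusted p = 0.114), and Mrc1, which is also on the macrophage list. Of the 9, 6 lay above 0, with a median of 0.18, or -0.03 with library weights. The sum was 115 to 134 FPKM in G2A livers and 114 to 126 FPKM in WT livers. Of 16 arterial, tip cell and Notch genes 0 passed, 5 were apart with G2A higher and 1 with G2A lower, with a median of 0.25. Without G2A liver 3, 4 passed as higher. The lower gene was Gja4, at 4.19, 2.01 and 1.71 FPKM in G2A livers, against 7.01, 4.85 and 4.78 FPKM in WT livers (-0.89, adjusted p = 0.151).

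Esm1, a secreted proteoglycan of tip cells and known to be induced by VEGF, had the smallest adjusted p of those named from the lists. It stood at 3.88, 4.15 and 3.39 FPKM in G2A livers, against 1.30, 1.68 and 1.13 FPKM in WT livers (log2 fold change 1.02, SE 0.13, adjusted p = 0.0811; 1.09 and adjusted p = 0.0106 without G2A liver 3). Unc5b, a netrin receptor of tip cells, stood at 12.6, 13.7 and 7.78 FPKM in G2A livers, against 6.46, 6.22 and 5.17 FPKM in WT livers (0.80, adjusted p = 0.125; 1.03 and adjusted p = 0.00992 without G2A liver 3). In both genes all G2A livers were above all WT livers.

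Markers of other cell types that carry some of these genes were set beside them. Vwf and Pecam1 are also made by megakaryocytes; of 14 megakaryocyte and platelet markers 0 passed with all livers and 0 without G2A liver 3, 1 was apart with G2A higher, and their sum was 671 to 880 FPKM in G2A livers, with liver 3 highest, and 643 to 772 FPKM in WT livers. Angpt1 is also made by mesenchyme. Of 17 mesenchyme, pericyte and stellate markers 0 passed, 5 were apart with G2A higher and 1, Cxcl12, with G2A lower. Their median was 0.13. The sum was 1046 to 1984 FPKM in G2A livers and 596 to 884 FPKM in WT livers. It includes the collagen gene Col1a1, at 299 to 669 FPKM in G2A livers and 118 to 177 FPKM in WT livers. Without G2A liver 3, 6 of the 17 passed as higher. Of 16 fibroblast markers, a list that shares collagen and PDGF receptor genes with the mesenchyme list, 0 passed and 9 were apart with G2A higher, with a median of 0.72 and a sum of 1409 to 2735 FPKM in G2A livers and 766 to 1028 FPKM in WT livers; 13 passed as higher without G2A liver 3. Of 11 erythroid markers 0 passed and 3 were apart with G2A lower, beside 15.7% of all genes, with a median of -0.47 and a sum of 1765 to 3360 FPKM in G2A livers and 2653 to 3682 FPKM in WT livers; 10 passed as lower without G2A liver 3, where 12% of all genes did. Tek is also made by blood stem cells; of 12 stem and progenitor markers 0 passed and 1 was apart with G2A higher. Of 11 macrophage markers tested 0 passed and 2 were apart with G2A higher, and of 13 hepatoblast markers 0 passed, 3 were apart with G2A higher and 1 with G2A lower. No listed marker that the liver values held was at 0 in every library. FPKM are shares of a library, and what part these shifts have in the levels of the 10 genes was not tested.

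**Figure D4:**
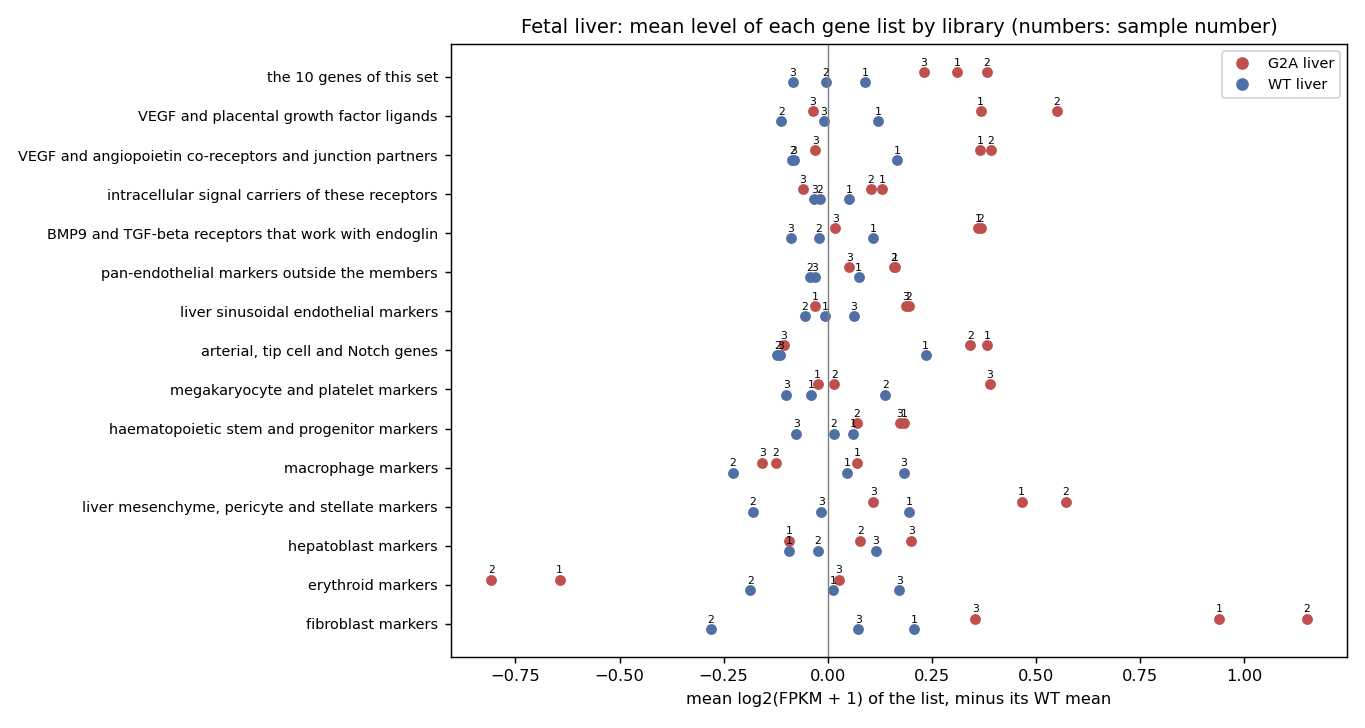
Mean log2(FPKM + 1) of each gene list in each liver, minus the mean of the WT livers for that list, for G2A livers (red, upper point of a row) and WT livers (blue, lower point), numbered by sample. The 10 genes, the fibroblast list and, narrowly, the stem and progenitor list have all 3 G2A livers to the right of all WT livers, the fibroblast and mesenchyme lists lie highest in G2A livers 1 and 2, and the erythroid list lies lowest there.

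Genes whose profile over the 6 livers was most like the mean profile of the 10 genes, by the root mean square distance of log2(FPKM + 1) values centred on each gene's WT mean, among 9462 genes with a mean of at least 5 FPKM, were Crebbp (0.0255), Erlec1 (0.0331), Hook3 (0.0333), Phyhd1 (0.0334) and Selk (0.0364). Their closeness is a description over 6 livers, none passed the G2A test, and none belongs to the lists above.

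In MEFs the genes did not move as a set: Flt1 and Angpt1 were lower in both G2A MEFs than in every WT MEF, while Flt4 and Angpt2 were higher. Tie1 had no read in any of the 5 libraries, and Pecam1 and Vwf stayed below the filter, so 7 of the 10 genes were tested. By limma 0 of the 7 passed, where 0% of 13241 genes passed. Before adjustment, 913 genes had a p under 0.05 with G2A higher and 990 with G2A lower, among them 1 of the 7 genes higher and 2 lower. By edgeR's quasi-likelihood test on the recovered reads 0 genes passed, and by DESeq2 1035 passed, Flt1 and Angpt1 among them, both lower. G2A MEFs were apart and higher for 2 of the 7 and for 18.9% of all genes, and apart and lower for 2 of the 7 and for 18% of all genes.

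These values are normalized reads per gene, which is the authors' read count divided by a library's size factor, and they are not divided by gene length. Flt1 stood at 177 and 104 normalized reads in G2A MEFs 1 and 2, against 402, 356 and 369 in WT MEFs 1, 2 and 3. The 3 WT libraries, WT MEF 3 included, were close together and both G2A libraries were below them. The log2 fold change on the log2(value + 1) scale was -1.46 (SE 0.29, 95% interval -2.21 to -0.72, adjusted p = 0.269 by limma). Without WT MEF 3 it was -1.47 and passed (adjusted p = 0.0213).

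Angpt1 stood at 41.4 and 25.5 normalized reads in G2A MEFs, against 912, 329 and 269 in WT MEFs 1, 2 and 3. The lowest WT library, WT MEF 3, was far above both G2A libraries. The log2 fold change was -3.69 (SE 0.61, 95% interval -5.22 to -2.16, adjusted p = 0.269), and without WT MEF 3 it was -4.03 and passed (adjusted p = 0.00645).

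Flt4 stood at 3072 and 2394 normalized reads in G2A MEFs, against 231, 344 and 2037 in WT MEFs 1, 2 and 3. WT MEF 3 was 7.08 times the mean of the other 2 WT libraries and close to the G2A libraries. The log2 fold change was 2.31 with all libraries (SE 0.94, 95% interval -0.07 to 4.69, adjusted p = 0.353) and 3.26 without WT MEF 3 (SE 0.23, adjusted p = 0.00119), so the call rested on leaving out this library.

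Eng behaved in the same way. It stood at 1590 and 1251 normalized reads in G2A MEFs, against 184, 200 and 1282 in WT MEFs 1, 2 and 3, so WT MEF 3 lay between the G2A libraries and the groups overlapped. The log2 fold change was 1.96 with all libraries (SE 0.90, adjusted p = 0.385) and 2.87 without WT MEF 3 (SE 0.17, adjusted p = 0.000814). Its neighbours with overlapping exons were not apart by so much, with log2 fold changes of 0.26 for Ak1 and 0.14 for Fpgs (adjusted p = 0.382 and 0.696).

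The other receptors and ligands were as follows. Kdr stood at 178 and 162 normalized reads in G2A MEFs, against 134, 165 and 398 in WT MEFs, with WT MEF 3 highest (log2 fold change -0.28, adjusted p = 0.818; 0.19 without WT MEF 3, adjusted p = 0.566). Tek stood at 36.5 and 32.4 in G2A MEFs, against 47.4, 27.1 and 469 in WT MEFs, so that WT MEF 3 held 12.6 times the mean of the other 2 (log2 fold change -1.29, adjusted p = 0.650; -0.06 without it, adjusted p = 0.926). Angpt2 stood at 138 and 88.2 in G2A MEFs, against 55.6, 55.3 and 43.2 in WT MEFs, with the groups apart (log2 fold change 1.10, SE 0.38, adjusted p = 0.316; 0.98 without WT MEF 3, adjusted p = 0.0790).

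Tie1 and Pecam1 were at the limit of detection in MEFs, and Vwf was low. Pecam1 stood at 0 and 2.94 normalized reads in G2A MEFs, against 3.09, 2.09 and 1.88 in WT MEFs, at or below what 3 reads give in a library (2.82 to 3.13 normalized reads). Vwf stood at 6.90 and 5.88 in G2A MEFs, against 2.06, 3.13 and 25.4 in WT MEFs, with WT MEF 3 highest. A count of 0 for Tie1 allows up to 3 reads per library, counting error only.

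**Figure D5:**
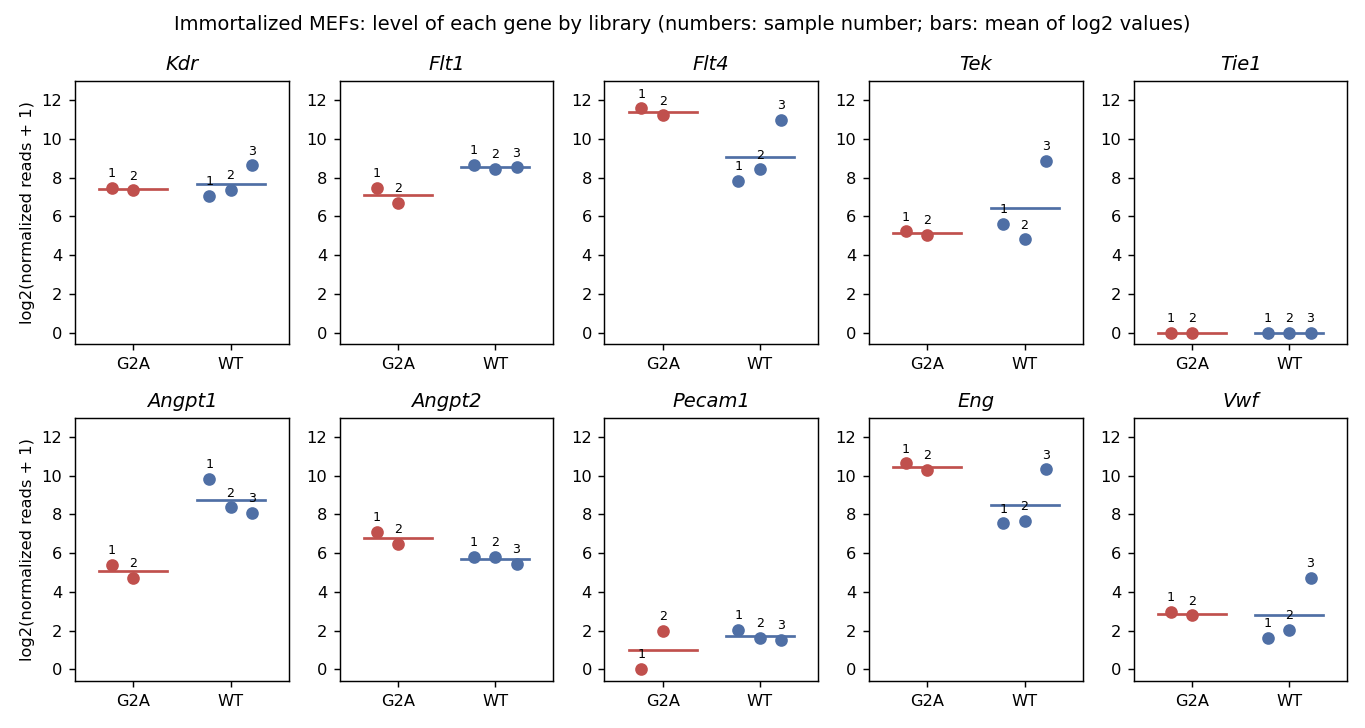
Level of each gene as log2(normalized reads + 1), a log scale shared by all panels, in the 2 G2A MEF libraries (left, red) and the 3 WT MEF libraries (right, blue), with sample numbers; bars are means of the log2 values. Flt1 and Angpt1 are lower in both G2A libraries, WT MEF 3 lies with the G2A libraries for Flt4 and Eng and above all others for Kdr, Tek and Vwf, and Tie1 is at 0 throughout.

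Without WT MEF 3, 4 of the 7 genes passed: Flt4 and Eng as higher, where 11.7% of all genes did, and Flt1 and Angpt1 as lower, where 11.5% did. None of the 7 passed with any other MEF library left out. Against the mean of WT MEFs 1 and 2, WT MEF 3 held 6.66 times the Eng level, 2.67 times the Kdr level and 9.77 times the Vwf level, but 0.975 of the Flt1 and 0.433 of the Angpt1 level. For Flt1 it thus lay with the WT libraries and for Flt4 and Eng with the G2A libraries.

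Divided by gene length, the MEF levels ordered differently from the livers. In G2A MEFs Eng (323 and 411 normalized reads per kb) and Flt4 (291 and 373) overlapped and stood above all others, followed by Angpt2 (23.9 and 37.4), Kdr (22.2 and 24.5), Flt1 (8.97 and 15.2), Angpt1 (5.99 and 9.73) and Tek (6.87 and 7.74). In WT MEFs the ranges of Eng (47.7 to 331), Angpt1 (63.2 to 214), Flt4 (28.04 to 248) and Tek (5.76 to 99.5) overlapped, and Flt1 (30.7 to 34.7), Kdr (18.4 to 54.8) and Angpt2 (11.7 to 15.1) followed. Vwf, Pecam1 and Tie1 were lowest in both genotypes. These levels were not set against those of the livers, since the tables were normalized separately.

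Many endothelial markers were low or undetected in MEFs. Cdh5 stood at 32.5 and 15.7 normalized reads in G2A MEFs, against 2.06, 6.26 and 0 in WT MEFs, Emcn and Sox17 had no read in any library, and 13 of 28 pan-endothelial markers passed the filter. The summed pan-endothelial markers were 3935 and 3979 normalized reads in G2A MEFs and 3421 to 4534 in WT MEFs, beside fibroblast markers of 578456 and 582917 in G2A MEFs and 814342 to 1413800 in WT MEFs. Most of the pan-endothelial sum was Ets1, at 3008 and 3066 normalized reads in G2A MEFs and 2552 to 3594 in WT MEFs. These marker values stand beside the levels of Flt4, Eng and Flt1, and their part in them was not tested.

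Of 13 pan-endothelial markers tested in MEFs 0 passed, 5 were apart with G2A higher and 3 with G2A lower; without WT MEF 3, 3 passed as higher and 2 as lower. Clec14a, a C-type lectin of endothelium, stood at 0 and 1.96 normalized reads in G2A MEFs, against 28.9, 13.6 and 28.2 in WT MEFs (log2 fold change -3.76, adjusted p = 0.269; -3.60 and adjusted p = 0.0296 without WT MEF 3). Ptprb, the phosphatase that acts on TIE2, stood at 69.0 and 38.2 normalized reads in G2A MEFs, against 15.5, 16.7 and 15.04 in WT MEFs (log2 fold change 1.65, adjusted p = 0.300; 1.62 and adjusted p = 0.0480 without WT MEF 3). Of 5 VEGF ligands 0 passed and 1 was apart, Vegfa, at 1415 and 1504 normalized reads in G2A MEFs, against 1845, 1733 and 1928 in WT MEFs (-0.33, adjusted p = 0.313; -0.29 and adjusted p = 0.0874 without WT MEF 3). The direction of Vegfa was thus opposite to that in liver, where it was higher in G2A. With all libraries it passed in neither tissue, and a test of its difference between the tissues is not given here.

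Of 8 co-receptors and junction partners tested in MEFs 0 passed, 2 were apart with G2A higher and 3 with G2A lower; without WT MEF 3, 2 passed as higher and 4 as lower. Nrp2, a co-receptor of VEGFR3 and of semaphorins, stood at 6229 and 5386 normalized reads in G2A MEFs, against 12255, 10939 and 7617 in WT MEFs (-0.80, adjusted p = 0.288, and 0.00402 without WT MEF 3). Of 12 signal carriers 0 passed, 1 was apart with G2A higher and 2 with G2A lower, and 1 passed in each direction without WT MEF 3. The lower ones include Foxo1, the transcription factor that TIE2 signalling restrains, at 856 and 757 in G2A MEFs, against 3027, 3281 and 1132 in WT MEFs (-1.48, adjusted p = 0.310; -1.97 and adjusted p = 0.00074 without WT MEF 3).

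Of 11 endoglin partners tested in MEFs 0 passed, 1 was apart with G2A higher and 5 with G2A lower, with a median of -0.27; without WT MEF 3, 1 passed as higher and 4 as lower. Of 10 arterial, tip cell and Notch genes 0 passed, 1 was apart with G2A higher and 5 with G2A lower; without WT MEF 3, 2 passed as higher and 7 as lower. Jag1, a Notch ligand, stood at 84.8 and 133 normalized reads in G2A MEFs, against 413, 444 and 367 in WT MEFs (-1.93, adjusted p = 0.269, and 0.00681 without WT MEF 3), and Notch1, a Notch receptor, at 940 and 980 in G2A MEFs, against 2629, 2257 and 1686 in WT MEFs (-1.17, adjusted p = 0.269; -1.34 and adjusted p = 0.00194 without it). Of 15 fibroblast and 15 mesenchyme markers tested 0 passed, and 8 of each list were apart with G2A lower, with medians of -0.89 and -1.04. Without WT MEF 3, 1 fibroblast and 3 mesenchyme markers passed as higher and 9 of each list as lower. Beside the counts in all MEF lists, 18.9% of all genes were apart with G2A higher and 18% with G2A lower. Without WT MEF 3, 11.7% of all genes passed as higher and 11.5% as lower. Of the tested sinusoidal (5), megakaryocyte (7), stem and progenitor (9), macrophage (2), hepatoblast (8) and erythroid (5) markers 0 passed. Without WT MEF 3, 6 stem and progenitor markers passed as higher and 1 as lower, 3 megakaryocyte markers passed as lower, 3 hepatoblast, 1 macrophage and 1 erythroid marker passed as higher, and no sinusoidal marker passed.

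Whether the G2A effect on a gene differed between liver and MEFs was tested by the difference of the 2 log2 fold changes over its combined SE, adjusted over the 10818 genes tested in both tissues, of which 2.21% passed. Of the 7 genes tested in both, 2 passed, Flt1 and Angpt1. For Flt1 the effect in liver was above that in MEFs by 2.204 on the log2 scale (95% interval 1.43 to 2.97, adjusted p = 0.0337), with 0.74 in liver and -1.46 in MEFs. For Angpt1 it was above by 4.08 (95% interval 2.54 to 5.61, adjusted p = 0.0446), with 0.38 in liver and -3.69 in MEFs. Both genes were thus higher in every G2A liver than in any WT liver and lower in both G2A MEFs than in any WT MEF.

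Both calls were close to the threshold. The Flt1 call was lost without G2A liver 2 (adjusted p = 0.0538), G2A MEF 1 (0.289), G2A MEF 2 (0.402) or WT MEF 1 (0.135), with differences of 1.82 to 2.58. The Angpt1 call was lost without G2A liver 1 (adjusted p = 0.0599), G2A liver 2 (0.0592), WT liver 2 (0.0581), WT liver 3 (0.0593), G2A MEF 1 (0.551), G2A MEF 2 (0.496), WT MEF 1 (0.102) or WT MEF 2 (0.0571), with differences of 3.54 to 4.42 over all libraries left out. For Kdr (0.74, adjusted p = 0.435), Tek (1.54, adjusted p = 0.500), Flt4 (-2.11, adjusted p = 0.253), Eng (-1.91, adjusted p = 0.268) and Angpt2 (-1.03, adjusted p = 0.201) a difference between the tissues was not shown with all libraries. Without WT MEF 3, 4 of the 7 passed, where 30.1% of all genes did: Flt1 (2.22, adjusted p = 0.00197), Angpt1 (4.42, adjusted p = 0.00236), Flt4 (-3.06, adjusted p = 0.000291) and Eng (-2.82, adjusted p = 6.5e-05).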

How the data were processed

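Per the labels' protocols, reads of total RNA were cut to 50 bp and mapped with TopHat 2.1.1 to mm9. Cufflinks 2.2.1 and mm10 also appear, per the submitters' processing notes. The liver values were deposited as FPKM per gene, a unit read from the tool named and from values that are not whole. The MEF values were deposited as a normalized signal per gene, made by the authors; 100% of them were whole reads (within 0.01) once multiplied by 1 size factor per library, 0.958 to 1.06. Not given in the sources used here are the annotation, the counting tool and the handling of strand.

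Here log2(value + 1) was fitted on genotype within each tissue with limma 3.58.1 (R 4.3.3, variance trend), and p-values were adjusted by Benjamini-Hochberg over all genes tested at a threshold of 0.05. Genes tested had at least 1 FPKM in at least 3 livers (12938 genes) or, as these are reads, at least 10 in at least 2 MEF libraries (13241 genes). The recovered reads were also tested with edgeR 4.0.16 and DESeq2 1.42.0. The tissue difference used Satterthwaite degrees of freedom. The scripts were tested on simulated data. Alternatives were other pseudocounts, filters, scalings, library weights, a variance without trend, the sample number as a block and each library left out. Genes named from a list were among its up to 4 members past the threshold or, with none, its 2 with the smallest p. Cdh5, Emcn, Sox17, Ak1, Fpgs, Tal1, Cxcl12, Gja4 and Ets1 were added after their values were seen. The 10 genes, the lists, the tests and the 2 libraries set apart were chosen with earlier results of these data known. No column was left unmapped; 1 labelled MEF sample was not analysed here.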

Additional observations from a re-analysis of the deposited data

Results flagged for a closer look

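The G2A effects on 2 of the genes differed between liver and MEFs by a test of the difference itself. For Flt1 the log2 fold change was 0.74 in liver and -1.46 in MEFs, a difference of 2.204 (adjusted p = 0.0337 by limma standard errors), with G2A higher in 3 of 3 livers and lower in 2 of 2 MEF libraries than in any WT library of that tissue. For Angpt1 it was 0.38 in liver and -3.69 in MEFs, a difference of 4.08 (adjusted p = 0.0446), with the same pattern of libraries, though by a narrow margin in liver. The differences kept their sign with each of 11 libraries left out, and the call held in 7 of these 11 fits for Flt1 and in 3 of 11 for Angpt1. Without WT MEF 3 the differences were 2.22 (adjusted p = 0.00197) and 4.42 (adjusted p = 0.00236). With a variance without trend neither call held by the same test (adjusted p = 0.0570 for Flt1 and 0.0869 for Angpt1). Tissue, culture and cell composition differ together here and cannot be told apart.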

How the results depend on the processing

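In liver, 3 genes in all and 0 of the 10 were called. Library weights, which rested mostly on G2A liver 1 among the G2A livers, gave 6057 and 6, and removal of small RNA genes gave 1 in all. In MEFs, 0 genes were called; library weights gave 6124 in all and 5 of the 7, and DESeq2 gave 1035 and 2. For the tissue difference, 239 genes and 2 of the 7 were called; a stricter filter, which left out Flt1, gave 1 of the 7, and a variance without trend gave 19 genes and 0 of the 7. With each library left out in turn, calls ranged from 2 to 3152 genes and 0 to 3 of the 10 in liver, from 0 to 3075 genes and 0 to 4 of the 7 in MEFs, and from 2 to 3260 genes and 0 to 4 of the 7 for the difference. Except for fits with fewer samples or genes, the cause was not tested.

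The labels do not say that a number marks a littermate pair, and the values did not settle it: same-numbered livers deviated with correlations of 0.18, -0.10 and 0.10, and not every liver correlated best with its own number. For the MEF pairs they were 0.13 and -0.03. With a replicate block by sample number, 2 liver genes and 0 of the 10 were called, and 3707 MEF genes and 4 of the 7, where WT MEF 3 has no partner and so no part in the G2A estimate.

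Among the single genes followed through these settings, the sign of 4 values that passed no test turned. Angpt2 in liver was -0.053 under quantile normalization and -0.085 to 0.27 with a liver left out. Eng in liver was -0.025 with library weights and -0.026 to 0.092 with a liver left out. Kdr in MEFs was 0.19 with the replicate block, 0.26 with library weights and -0.59 to 0.19 with a library left out. Cdh5 in liver was -0.013 under median-ratio scaling and -0.036 to 0.060 with a liver left out. Liver read depth is unknown, so no counting interval can be given there.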
